A study of Mus musculus with 19 samples.

Results

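Induced pluripotent stem cells (iPSC) lacking one of 2 microRNA clusters were compared with embryonic stem cells (ESC) of the same genotype, so that the cells set side by side shared the deletion and differed in where they came from. The comparison used 12 of the 19 libraries of the series, chosen by their labels and not by any measured value: 8 iPSC libraries and 4 ESC libraries. The iPSC were made from mouse embryonic fibroblasts with Oct4, Sox2 and Klf4 and were collected more than 18 passages later. They carried a knockout (KO) of either the miR-290 or the miR-302 cluster, with 2 colonies per genotype and 2 libraries per colony. The ESC carried the same single knockouts, with 2 libraries per genotype, and both origins were grown with LIF and serum. The series description calls the colonies independently derived, whereas nothing in the labels says whether the ESC libraries of a genotype came from separate lines, so p-values measure the spread between these samples only. The labels used here give no sex, strain or parental line. Neither cluster was checked as the targeted gene, because no microRNA gene of either cluster was among the genes of the matrix. Wild-type (WT) iPSC, 3 libraries, are quoted beside some genes as a description, and no wild-type ESC were analysed here, so origin was not compared in cells with both clusters intact.

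Reprogramming resets a differentiated cell to a state that sustains itself through the transcription factor network of the early embryo, in which Oct4 (gene Pou5f1), Sox2 and Nanog hold the centre. The miR-290 cluster is the dominant microRNA cluster of mouse ESC, and the miR-302 cluster is best known from slightly later, primed pluripotent cells. Both make microRNAs that lower the mRNAs of cell cycle brakes and of mesenchymal and signalling genes. iPSC can keep traces of their cell of origin, and the imprinted Dlk1-Dio3 locus, X-linked genes and germline genes silenced by DNA methylation are places where such lines are known to vary.

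The deleted clusters overlap in their targets through a shared seed, the part of a microRNA (bases 2 to 8) that pairs with its targets, which is why a cell without one cluster may still hold the same seed from the other. The RefSeq mature sequences of 5 members, 5′ to 3′ with the seed in capitals, are shown to make that visible.
mmu-miR-291a-3p: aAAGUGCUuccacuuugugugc
mmu-miR-294-3p: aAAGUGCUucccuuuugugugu
mmu-miR-295-3p: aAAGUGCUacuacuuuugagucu
mmu-miR-302b-3p: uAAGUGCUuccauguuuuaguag
mmu-miR-302d-3p: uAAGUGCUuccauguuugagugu
All 5 carry 1 seed. The first 3 lie in the miR-290 cluster on chromosome 7 (GRCm38, plus strand; miR-291a-3p at chr7:3218968-3218989 and miR-295-3p at chr7:3220815-3220837), and the last 2 in the miR-302 cluster on chromosome 3 (miR-302b-3p at chr3:127545275-127545297). GENCODE places these 3 microRNAs of the miR-290 cluster within the span of Nlrp12 and the miR-302 cluster within that of Larp7. The transcripts measured below are polyadenylated mRNAs read at their 3′ end by QuantSeq.

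The 12 libraries held 6433259 to 24980302 reads (median 17462120) in genes whose reads could be recovered from the deposited log2 values. Levels are given as CPM, reads scaled to a common total over these genes, and a colony's CPM is the mean of its 2 libraries. In the second library of colony 1 of the miR-302 KO iPSC, the 20 most abundant genes took 17.1% of reads, against 10% to 12.1% in the other libraries. Its mean correlation across genes with the other libraries of its group was 0.852, against 0.904 or more elsewhere.

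The libraries carried sex-chromosome differences that did not follow the colony labels. Summed over Ddx3y, Eif2s3y and Uty, the 3 Y-linked genes measured, the miR-290 KO ESC had 26.7 and 25.5 CPM and the 4 miR-290 KO iPSC libraries had 64.3 to 86.3 CPM. The miR-302 KO ESC had 3 and 4 reads of these genes. Among the libraries labelled miR-302 KO iPSC, library 1 of colony 1 had 1 Y-gene read and library 2 had 149. Library 1 of colony 2 had 385 such reads and library 2 had 8, so each colony label covered 1 library with Y-gene reads and 1 with few or none. X-linked genes also set 2 libraries apart: their median deviation from the mean of the 12 libraries exceeded that of autosomal genes by 0.31 (log2) in replicate 1 of the miR-302 KO ESC and by 0.33 in 1 miR-302 KO iPSC library (colony 2, library 2), against -0.21 to 0.02 in the other 10. These 2 libraries had 44 and 190 reads of Xist, the noncoding RNA that coats the inactive X. Library 1 of colony 2 of the miR-290 KO iPSC had 108, without a raised X-linked level (-0.12) and with many Y-gene reads, and the other 9 libraries had 0 to 13. Xist reads cannot be told apart from those of its antisense partner Tsix where counting ignores strand. Each was the other's nearest library of all 12 (Pearson r across genes 0.97), although one is labelled ESC and the other iPSC. The results that follow are given for the labels as deposited, and with either pair of miR-302 KO iPSC libraries left out where that moved the quoted common difference of a gene by more than 1.5 times (first without the pair with Y-gene reads, then without the pair with few or none); what sets these libraries apart was not tested.

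**Figure D1:**
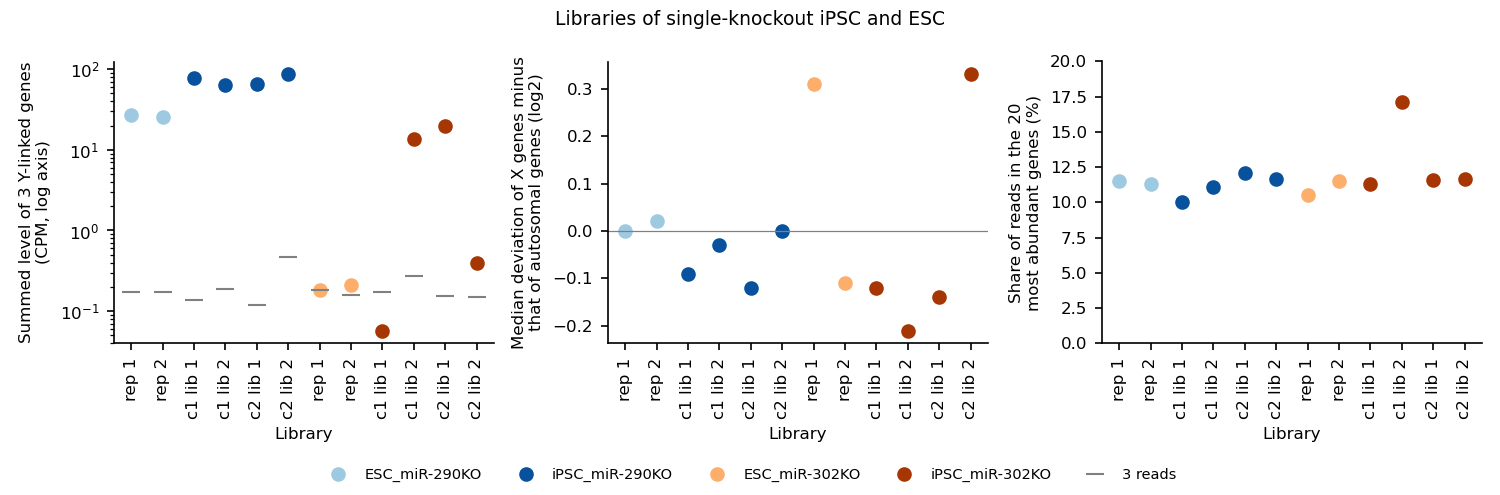
For each of the 12 libraries (c, colony; lib, library), the panels plot the summed CPM of 3 Y-linked genes on a log axis with the level of 3 reads marked, the X-minus-autosome median (log2), and the percent of reads in the 20 most abundant genes. In the miR-302 KO iPSC, each colony label holds 1 library with 149 or 385 Y-gene reads and 1 with 1 or 8, and replicate 1 of the miR-302 KO ESC shares the high X-linked level of colony 2 library 2.

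Both origins showed the expression of pluripotent cells, as labelled. The summed level of 7 of 8 pluripotency markers with recovered reads was 2500 to 3248 CPM in the ESC and 2761 to 3653 CPM in the iPSC colonies. Of 10 fibroblast markers, 4 were in the matrix (Col1a1, Pdgfrb, Thy1 and Twist1), and their sum was 3.23 to 12.6 CPM in the ESC and 4.84 to 14.5 CPM in the colonies. Col1a2, Col3a1, Postn, Prrx1, Lum and Dcn were not among the matrix genes. In bulk samples, fewer cells of a type and less RNA per cell cannot be told apart.

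No gene was called between iPSC and ESC of matched genotype. limma, fitted over 12778 genes with genotype as a covariate, gave 0 genes (0%) at a Benjamini-Hochberg adjusted p under 0.05, and 991 genes (7.76%) at an unadjusted p under 0.05. Of these 991, 280 (2.19%) were higher and 711 (5.56%) lower in iPSC. The smallest adjusted p was 0.102, for Ddx3y. The count at an unadjusted p under 0.05 was 421 (3.29%) without the miR-302 KO iPSC libraries with Y-gene reads and 1114 (8.72%) without those with few or none, and the median difference over all genes, -0.07 with all libraries, was 0 and -0.13. In the same fit, genotype gave 628 calls (4.91%), with 2766 genes (21.6%) at an unadjusted p under 0.05. The samples of the 2 origins did not overlap in 354 genes (2.77%), 128 (1%) with the 4 colonies above the 4 ESC libraries and 226 (1.77%) below.

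The absence of calls did not bound every gene. The median standard error was 0.276 (log2) and the median 95% interval reached 0.61 to either side. For 7092 genes (55.5%) the interval lay within a 2-fold change in either direction. The fitted difference was under 0.5 in size for 9757 genes (76.4%) and at least 1 for 557 (4.36%), 202 higher and 355 lower in iPSC.

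Origin took a smaller share of the variation than genotype. Of the total sum of squares over all genes and the 8 samples, 35.2% lay with genotype, 12.7% with origin and 9.73% with their interaction, each on 1 degree of freedom. The spread between samples of a group took 42.4% on 4 degrees of freedom, or 10.6% each, close to the share of origin. Across genes, samples of the same genotype and other origin correlated at a mean r of 0.951 (0.925 to 0.975, 8 pairs). Samples of the same genotype and origin correlated at 0.953 (0.932 to 0.973, 4 pairs). Samples of the other genotype and the same origin stood at 0.93 (0.911 to 0.946, 8 pairs). The pairs share samples, so these values are a description.

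The origin difference in one genotype was only weakly like that in the other. The 2 within-genotype differences share no sample. Across 12778 genes, which are not independent replicates, their Pearson r was 0.14 and their Spearman rho 0.23, and 59.5% of genes had the same sign. Among 259 genes with a difference of at least 1 in size in both genotypes, 140 (54.1%) had the same sign, 46 higher and 94 lower in iPSC. The median difference over all genes was -0.01 for the miR-290 KO and -0.14 for the miR-302 KO.

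**Figure D2:**
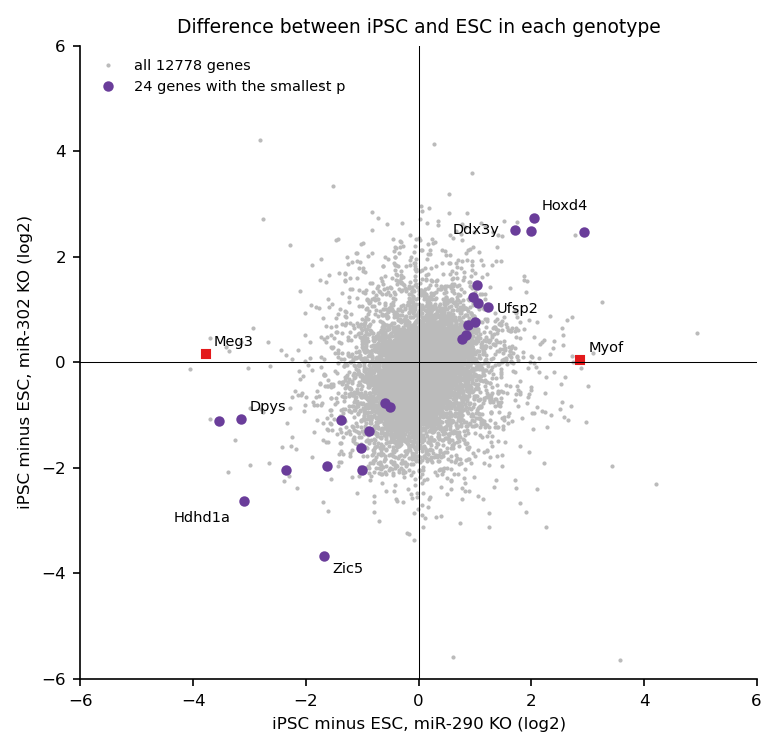
Each point is a gene, with the iPSC minus ESC difference (log2) in the miR-290 KO on the horizontal axis and in the miR-302 KO on the vertical axis; purple points are the 24 genes with the smallest p for origin, none of them called. The grey cloud is nearly round (Pearson r 0.14), and Myof and Meg3 lie far from 0 on the horizontal axis and near 0 on the vertical one.

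The 12 genes with the smallest p in each direction were singled out by rule as the nearest to a shared origin difference, and none was called. They were chosen on this contrast, so their values are a description. On the log2 scale used for the averages, both colonies lay on one side of both ESC libraries within each genotype in all 24, which held for 343 genes higher (2.68%) and 642 lower (5.02%) in iPSC among all genes. That holds for colony averages, and single libraries of a colony overlapped the ESC in several of the 24. Across genotypes, 5 of the 12 higher genes and 6 of the 12 lower ones did not overlap between origins. Among all genes, 128 (1%) were higher and 226 (1.77%) lower in iPSC without overlap.

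Ufsp2, a protease that matures the ubiquitin-like modifier UFM1 (chr8:45975515-45996958), was at 10.3 and 7.04 CPM in the miR-290 KO ESC and 13.8 and 15.4 CPM in the miR-302 KO ESC. The colonies had 22.9 and 19.2 CPM in the miR-290 KO and 32.8 and 29 CPM in the miR-302 KO. In colony 2 of the miR-290 KO, library 1 had 12.05 CPM, below both miR-302 KO ESC libraries, and library 2 had 26.3 CPM. All 4 colonies stood above all 4 ESC libraries, by 1.14 (log2, SE 0.21, limma adjusted p 0.6), and WT iPSC had 17.5 ± 5.76 CPM (SD, n = 3). Pgls, the lactonase of the pentose phosphate pathway, was at 52.8 to 59.5 CPM in the ESC and at 91.8, 115, 150 and 70.5 CPM in the colonies. Its difference of 0.79 (SE 0.2) became 0.51 without the miR-302 KO iPSC libraries with Y-gene reads and 1.07 without those with few or none. In colony 1 of the miR-302 KO, library 1 had 58.2 CPM of Pgls, inside the range of the ESC, and library 2 had 243 CPM. In library 2 the 20 most abundant genes took 17.1% of reads. Selm, an endoplasmic reticulum selenoprotein, was at 5.89 to 12.1 CPM in the ESC and 13.8 to 22.2 CPM in the colonies (1.1, SE 0.29). Sugt1, a co-chaperone of HSP90, overlapped between origins, with 197 to 342 CPM in the ESC and 309 to 491 CPM in the colonies. WT iPSC held 50.1 ± 5.08 CPM of Pgls and 10.6 ± 1.02 CPM of Selm (SD, n = 3), nearer to the ESC than to the knockout colonies on the log2 scale.

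Lgals1, which encodes the secreted lectin galectin-1, was at 87.9 and 135 CPM in miR-290 KO ESC and 234 and 228 CPM in the colonies of that genotype. For the miR-302 KO it was at 38.5 and 32.7 CPM in ESC and 80.8 and 54.4 CPM in colonies. The colony means were thus apart from the ESC within each genotype and overlapped with them across genotypes (0.89, SE 0.2). In colony 1 of the miR-302 KO, library 1 had 35.7 CPM of Lgals1, inside the range of the ESC of that genotype, and library 2 had 126 CPM. Tagln2, an actin-binding transgelin, was at 184 to 305 CPM in the ESC and 295 to 637 CPM in the colonies (0.68, SE 0.17). Mmp2, a secreted gelatinase of the fibroblast list, was at 5.6, 7.85, 1.78 and 1.98 CPM in the ESC and 13.3, 14.3, 7.22 and 6.95 CPM in the colonies. Its difference of 1.25 (SE 0.29) moved to 0.78 without the libraries with Y-gene reads and to 1.73 without those with few or none. Library 1 of colony 1 of the miR-302 KO had 1.43 CPM of Mmp2, below both ESC libraries of that genotype, and library 2 had 13 CPM. Hs3st6, a heparan sulfate sulfotransferase, was under 1 CPM in all 4 ESC libraries and at 0.941 to 3.61 CPM in the colonies. Pcdhgb5, of the gamma protocadherins, differed by 2.69 (SE 0.64) in the deposited log2 values. Its CPM could not be recovered, and the gamma protocadherins share their 3′ exons, so 3′ reads of this gene and its neighbours are uncertain.

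Tmem121 and the homeobox gene Hoxd4 complete the higher genes with Ddx3y. Tmem121 was at 5.34 to 6.47 CPM in the ESC, a narrow range, and at 9.09, 17.9, 17 and 11.8 CPM in the colonies (1.1, SE 0.28). Library 1 of colony 1 of the miR-302 KO had 6.36 CPM of it, inside the range of the ESC, and library 2 had 27.7 CPM. Library 2 is the one whose 20 most abundant genes took 17.1% of reads. Hoxd4 was at 1.52 and 2.58 CPM in miR-290 KO ESC and at 1.23 and 0 CPM in miR-302 KO ESC, where 3 reads would give 0.157 CPM in the library without any. The colonies had 5.95, 13, 2.73 and 3.05 CPM, all above the ESC at a low level. Ddx3y, a Y-linked RNA helicase, was at 15.4 and 13.3 CPM in miR-290 KO ESC and at 40.2 to 52.2 CPM in the 4 libraries of the miR-290 KO iPSC. The miR-302 KO ESC libraries had 3 reads each and the 4 iPSC libraries of that genotype 0, 144, 238 and 6. Its difference of 2.11 (SE 0.26) therefore rested on which miR-302 KO libraries entered: 0.7 without the 2 with Y-gene reads and 3.53 without the 2 with few or none. Averaging brought the 2 miR-302 KO colonies to 6.51 and 6.25 CPM. The SE and p of Ddx3y therefore do not cover the spread between libraries of a colony.

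**Figure D3:**
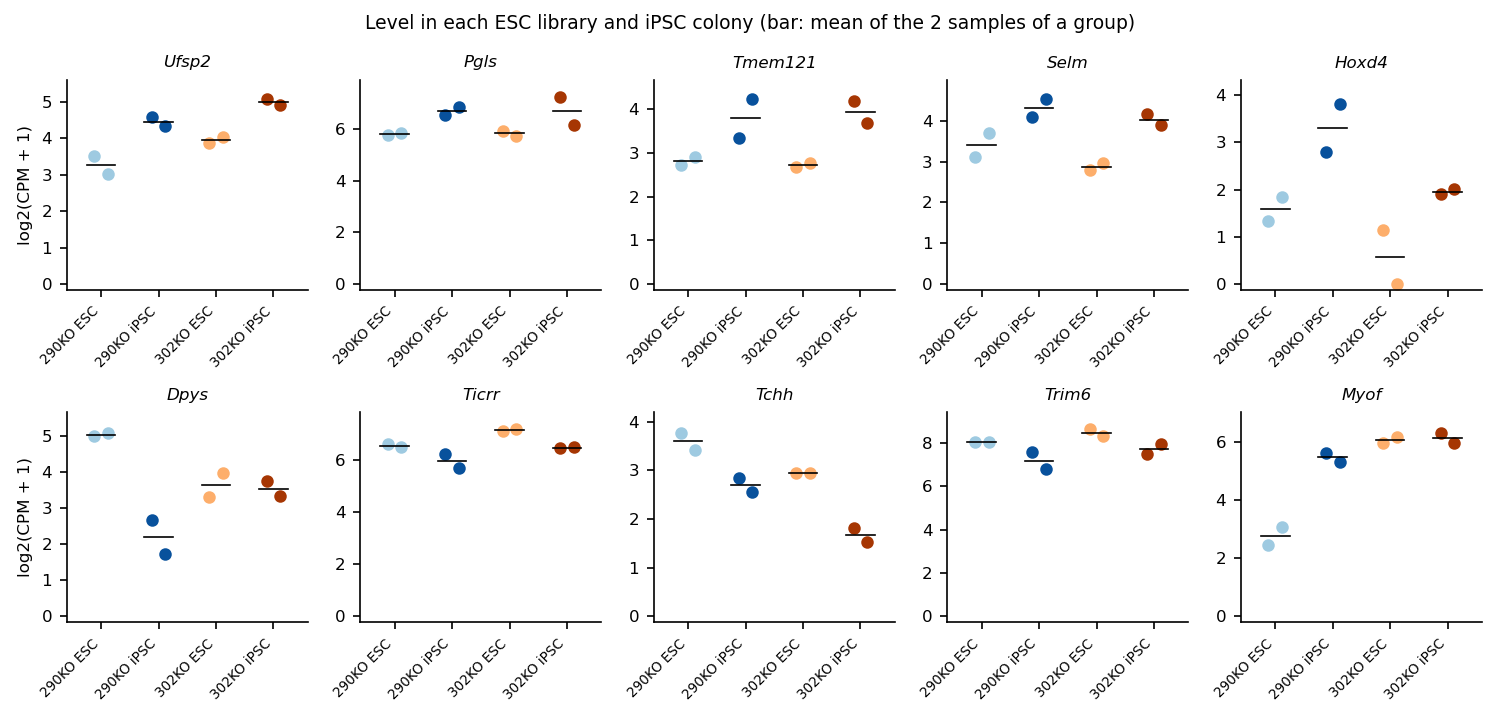
Each panel plots log2(CPM + 1) of 1 gene in the 2 samples of each group (ESC libraries and iPSC colonies; bar, mean of the 2), for 9 of the 24 genes and for Myof. Ufsp2, Pgls, Tmem121, Selm and Hoxd4 lie higher in all 4 colonies, Ticrr, Tchh and Trim6 lower, Dpys is lower in the miR-290 KO colonies, and Myof is low in the miR-290 KO ESC alone.

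Of the 12 lower genes, Ticrr, which helps replication origins fire, was at 95.4, 87.5, 135 and 142 CPM in the ESC and at 72.2, 49.9, 85 and 87.4 CPM in the colonies. As averages of their libraries, all 4 colonies stood below all 4 ESC libraries, by -0.69 (log2, SE 0.16, limma adjusted p 0.6). The miR-302 KO iPSC libraries with few or no Y-gene reads had 123 and 95.4 CPM of Ticrr, within the range of the 4 ESC libraries. Those with such reads had 47.4 and 79.3 CPM. Pttg1, the securin that restrains the separation of sister chromatids until anaphase, was at 235 and 201 CPM in miR-290 KO ESC, against 139 and 170 CPM in the colonies. The miR-302 KO samples were at 385 and 342 CPM in ESC and 241 and 253 CPM in colonies. Its difference of -0.67 (SE 0.15) was -0.21 without the libraries with Y-gene reads and -1.13 without those with few or none. The 2 miR-302 KO iPSC libraries with Y-gene reads had 114 and 102 CPM, and the 2 with few or none had 369 and 405 CPM, above both ESC libraries in 1 case and between them in the other.

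Dpys, the dihydropyrimidinase of pyrimidine breakdown, was at 30.8 and 32.4 CPM in the miR-290 KO ESC and 5.4 and 2.33 CPM in the colonies of that genotype. Among miR-302 KO samples, the ESC had 8.84 and 14.7 CPM and the colonies 12.3 and 9.08 CPM. The difference was -3.15 for the former genotype and -1.08 for the latter (limma, p for the difference between genotypes 0.0162 unadjusted, 0.999 adjusted over all genes). The 4 miR-302 KO iPSC libraries had 24.1, 0.452, 4.36 and 13.8 CPM, so that their colonies overlapped the ESC in mean CPM and lay below them only in mean log2. The common difference of -2.11 was -1.24 and -2.99 under the same 2 exclusions.

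Trim6, a ubiquitin ligase, was at 263, 262, 397 and 316 CPM in the ESC and at 190, 110, 178 and 247 CPM in the colonies, with no overlap (-1.1, SE 0.26; -0.46 without the libraries with Y-gene reads and -1.74 without those with few or none). Its miR-302 KO iPSC libraries with few or no Y-gene reads had 327 and 370 CPM, inside the range of the ESC of that genotype, and those with such reads had 124 and 28 CPM. Tchh, which encodes the hair follicle protein trichohyalin, was at 12.7, 9.74, 6.69 and 6.68 CPM in the ESC and 6.17, 4.84, 2.51 and 1.9 CPM in the colonies (-1.52, SE 0.36; -0.97 and -2.07 under the same exclusions). Sh3gl1, which encodes endophilin A2, was at 149, 182, 151 and 74.1 CPM in the ESC and 113, 58.5, 36.1 and 47.1 CPM in the colonies. These 2 origins overlapped, with replicate 2 of the miR-302 KO ESC lowest among the ESC (-1.33, SE 0.27; -0.88 and -1.78). Rab38, a small GTPase of pigment granules, was at 14 to 23.7 CPM in the ESC and 4.55 to 17 CPM in the colonies (-1.23, SE 0.29; -0.7 and -1.77). Library 1 of colony 1 of the miR-302 KO had 26.6 CPM of Rab38, above all 4 ESC libraries, and library 2 had 1.72 CPM.

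The last lower genes were weakly expressed or could be given only as differences. Zic5, a zinc finger factor of the formative and primed state, was at 3.33, 1.15, 0.798 and 3.86 CPM in the ESC and at 0.936, 0.276, 0 and 0.0247 CPM in the colonies (-2.67, SE 0.65). Hdhd1a was at 0.974 to 2.8 CPM in the ESC and at most 0.444 CPM in the colonies (-2.86, SE 0.6). Gm21283 ranged from 3.55 to 15.3 CPM in the ESC and from 1.53 to 10.8 CPM in the colonies (-1.79, SE 0.38; -0.79 and -2.79 under the exclusions). In colony 2 of the miR-302 KO, library 2 had 19.5 CPM of Gm21283, above all 4 ESC libraries, and library 1 had 2.05 CPM. For Gm6710 and Gm14434 only log2 differences can be given, -2.2 (SE 0.5) and -2.33 (SE 0.56). Gm14434 stood at -3.55 for miR-290 KO and -1.11 for miR-302 KO cells (limma, unadjusted p for the difference between genotypes 0.0202, adjusted p 0.999). Its common difference was -3.36 without library 1 and -1.3 without library 2 of colony 2 of the miR-290 KO iPSC, and -3.31 and -1.35 without the same libraries of colony 1.

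WT iPSC, which did not enter the choice of genes, gave a separate view of these 24 genes. Their mean lay nearer to the knockout iPSC than to the ESC in 5 of the 12 higher genes (Ddx3y, Ufsp2, Mmp2, Hs3st6 and Sugt1) and in 3 of the 12 lower ones (Tchh, Gm14434 and Zic5). Over the 354 genes whose origins did not overlap, WT iPSC lay nearer to the knockout iPSC in 100 (28.2%), against 39.5% of all genes. WT iPSC differ from the ESC in genotype as well as origin, which cannot be told apart here.

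Within the miR-290 KO alone, limma called 1 gene (0.00783%), and 395 (3.09%) had an unadjusted p under 0.05. It was Myof, which encodes the membrane repair protein myoferlin (chr19:37899036-38043577). Myof was at 4.55 and 7.5 CPM in the miR-290 KO ESC and at 48.5 and 39.1 CPM in the 2 colonies of that genotype, and all 4 iPSC libraries lay between 34.8 and 51 CPM. It was higher in iPSC by 2.87 (log2, SE 0.29, adjusted p 0.034). In the miR-302 KO, Myof was at 61 and 72 CPM in ESC and 78.6 and 62.1 CPM in colonies, a difference of 0.04. The difference between genotypes was 2.82 (unadjusted p 5.5e-05, adjusted p 0.486), and WT iPSC had 5.02 ± 0.74 CPM (SD, n = 3), at the level of the miR-290 KO ESC. The call held in 11 of 26 alternatives and the value stayed between 2.52 and 3.22. It was lost, among others, without either ESC library, without either colony, and with the WT and double KO iPSC in the fit.

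Erdr1 was singled out after its values were seen. It was at 256 CPM in both miR-290 KO ESC libraries and at 810, 898, 1574 and 1192 CPM in the 4 iPSC libraries. Its miR-302 KO levels were 61.6 and 87.2 CPM in ESC and 53.9 to 123 CPM in iPSC. Its difference within the miR-290 KO was 2.08 (SE 0.318, limma adjusted p 0.422), and it passed the threshold only with estimated sample weights.

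Within the miR-302 KO, limma called 0 genes, with 1018 (7.97%) at an unadjusted p under 0.05, of which 192 (1.5%) were higher and 826 (6.46%) lower in iPSC. Without the 2 libraries with Y-gene reads the count was 1, and without the 2 with few or none it was 15, with 14 lower in iPSC. The test of whether the origin difference depends on genotype gave 0 calls by limma, with 450 genes (3.52%) at an unadjusted p under 0.05 and a smallest adjusted p of 0.486.

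Genes of the pluripotent state were close between origins. Of 25 naive and general pluripotency genes, limma called 0, and 4 (16%, against 7.76% of all genes) had an unadjusted p under 0.05 (Pou5f1, Nr0b1, Tbx3 and Tfcp2l1), 3 without the miR-302 KO iPSC libraries with Y-gene reads and 6 without those with few or none. Their median difference was -0.19, against -0.07 over all genes, with 7 higher and 18 lower in iPSC, and in 18 of 25 the 95% interval lay within a 2-fold change. Sox2 was at 367 to 470 CPM in the ESC and 320 to 409 CPM in the colonies (-0.16, SE 0.15; -0.1 and -0.22 under the 2 exclusions). L1td1, an RNA-binding protein gene, was at 430 to 495 CPM in the ESC and 452 to 557 CPM in the colonies (0.04, SE 0.13; -0.14 and 0.22), and Sall4, a zinc finger factor, differed by -0.08 (SE 0.13; -0.21 and 0.05).

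Pou5f1, which encodes Oct4, was at 871, 678, 671 and 676 CPM in the ESC and at 804, 1961, 1542 and 818 CPM in the colonies. Colony 2 of the miR-290 KO and colony 1 of the miR-302 KO stood above all ESC libraries, and the other 2 colonies lay within the range of the ESC (0.62, SE 0.26; 0.26 and 0.97 under the 2 exclusions). Within colony 1 of the miR-302 KO, 1 library had 626 CPM and the other 2458 CPM, so the high mean was that of the library whose 20 most abundant genes took 17.1% of reads. Nanog was at 586, 549, 1053 and 756 CPM in the ESC and 564, 448, 512 and 777 CPM in the colonies (-0.48, SE 0.24; -0.07 and -0.89), and that same library had 152 CPM, the lowest of the 12.

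The 3 naive factors with an unadjusted p under 0.05 had lower fitted values in iPSC. Nr0b1, which encodes the nuclear receptor Dax1, differed most among them (-0.83, SE 0.3), and this was -0.05 without the libraries with Y-gene reads and -1.6 without those with few or none. Its miR-302 KO iPSC libraries had 70.6 and 92 CPM where Y-gene reads were few or absent and 5.6 and 15.4 CPM where they were present, against 75.1 and 67.7 CPM in the ESC. Tfcp2l1 was at 339 and 227 CPM in miR-290 KO ESC and 173 and 170 CPM in the colonies, and at 536 and 376 CPM against 339 and 373 CPM in the miR-302 KO (-0.55, SE 0.18). Tbx3 was at 228 and 175 CPM against 117 and 113 CPM in the miR-290 KO (-0.54, SE 0.18), and the miR-302 KO samples overlapped. Esrrb, in the same network, was at 237 to 358 CPM in the ESC and 178 to 313 CPM in the colonies (-0.24, SE 0.19). Fbxo15, the member with the largest difference, stood at -0.84 (SE 0.39, limma adjusted p 0.6), with 18.6 CPM in colony 2 of the miR-290 KO against 73.9 to 154 CPM in the other 7 samples. It was -0.48 and -1.2 under the 2 exclusions, and -0.4 without that colony. Colony 1 of the miR-302 KO held 1 library with 144 and 1 with 23.7 CPM.

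**Figure D4:**
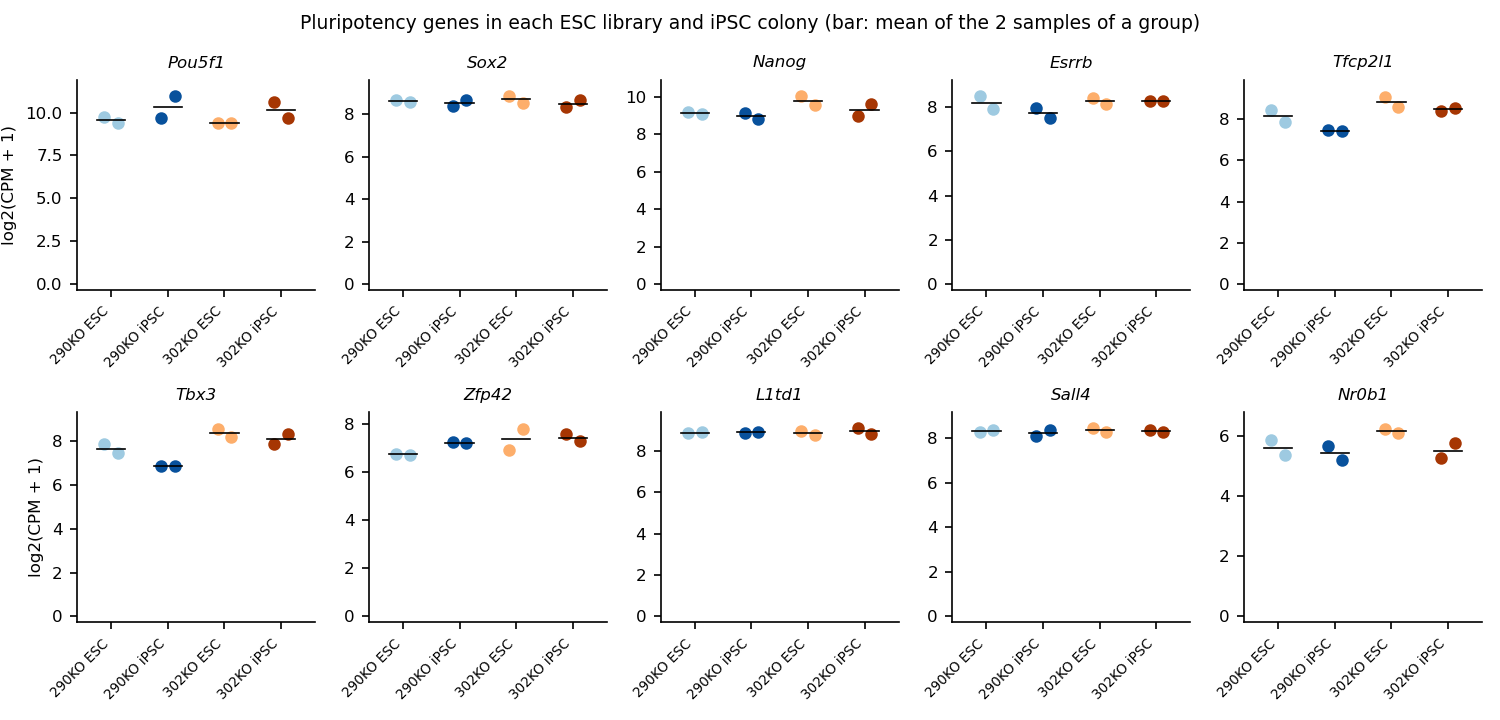
Each panel plots log2(CPM + 1) of 1 pluripotency gene in the 2 samples of each group (ESC libraries and iPSC colonies; bar, mean of the 2). Origins overlap in all 10 panels, with Pou5f1 up to 1961 CPM in 1 colony and Tfcp2l1 at 170 to 173 CPM in both miR-290 KO colonies.

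The 17 formative and primed genes measured had a median of -0.13, with 0 called by limma and 3 (17.6%, against 7.76% of all genes) at an unadjusted p under 0.05 (Foxd3, Lefty2 and Zic5). Lefty2, an inhibitor of Nodal, differed by 0.52 (SE 0.16) in the deposited values, and Nodal itself by -0.13 (SE 0.15), at 83.7 to 101 CPM in the ESC and 66.8 to 100 CPM in the colonies. The methyltransferase Dnmt3b was at 62.5 to 145 CPM in the ESC and 56.4 to 134 CPM in the colonies. The 14 DNA methylation enzymes had a median of 0.06, and 11 of them an interval within a 2-fold change. Apobec1 had the largest difference among them (-0.77, SE 0.66; -0.47 and -1.08 under the 2 exclusions), and it was -0.15 without colony 1 of the miR-302 KO.

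Genes of the fibroblast of origin had the highest list median outside the Y chromosome, whose 3 genes stood at 1.44 (0.7 and 2.17 under the 2 exclusions). Of 33 such genes 18 were in the matrix, and their median difference was 0.56, with 14 higher and 4 lower in iPSC. limma called 0, and 4 (22.2%, against 7.76% of all genes) had an unadjusted p under 0.05: Mmp2, Sparc and Tagln higher, and Fn1 lower. That number was 0 without the libraries with Y-gene reads and 4 without those with few or none. The median was 0.83 for the miR-290 KO and 0.32 for the miR-302 KO, and between 0.42 and 0.72 in the alternatives tried. Samples of the same group varied in their own median over this list with a pooled SD of 0.516 (log2), near the size of the 0.56.

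The abundant members of this list did not share a direction. Sparc, a collagen-binding matrix protein gene, was at 978, 854, 748 and 569 CPM in the ESC and 1181, 1652, 892 and 780 CPM in the colonies (0.45, SE 0.16; 0.28 and 0.62 under the 2 exclusions). Fn1, for fibronectin, was at 474 to 667 CPM in the ESC and 365 to 513 CPM in the colonies (-0.42, SE 0.16; -0.23 and -0.61). Tagln, for the smooth muscle actin-binding protein transgelin, was at 10.9 and 13.7 CPM in miR-290 KO ESC and 26.5 and 21.7 CPM in colonies, and under 1 CPM in miR-302 KO ESC against 3.64 and 1.47 CPM in colonies (1.29, SE 0.41). Vim, for vimentin, differed by 0.12 (SE 0.22; -0.02 and 0.26). Several members sat near the detection limit: Snai2, a factor of the epithelial to mesenchymal transition with a difference of 1.29 (SE 0.8), had at most 2.85 CPM in the 12 libraries.

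The epithelial list had a median of -0.34 over 16 genes, 3 higher and 13 lower in iPSC, with 0 called and 0 at an unadjusted p under 0.05. Cdh1, which encodes E-cadherin, was at 486 to 615 CPM in the ESC and 298 to 607 CPM in the colonies (-0.25, SE 0.17), and Epcam differed by -0.5 (SE 0.23; -0.23 and -0.76 under the 2 exclusions). The splicing regulator Esrp1 had the largest difference (-0.99, SE 0.63), with 1.41 to 28.4 CPM in the ESC and 1.6 to 16.7 CPM in the colonies. The median of this list ran from -0.56 to -0.08 between the 2 exclusions of miR-302 KO iPSC libraries. Between samples of a group it had a pooled SD of 0.463 (log2), larger than the size of the -0.34.

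The Dlk1-Dio3 imprinted locus set 1 colony apart. Meg3, a maternally expressed noncoding RNA, was at 265 to 449 CPM in all 4 ESC libraries. It was at 335 CPM in colony 1 of the miR-290 KO, 432 and 263 CPM in the miR-302 KO colonies, and 2.51 CPM in colony 2 of the miR-290 KO. Both libraries of that colony were low (3.16 and 1.86 CPM). Its neighbours Rian and Mirg showed the same colony apart, with 2.43 CPM of Rian against 66.3 to 105 CPM in the other 7 samples, and 0.02 CPM of Mirg against 9.14 to 21.8 CPM. The list of 5 genes had a median of -1.15, which became -0.02 without that colony and -1.9 without colony 1. Dio3, paternally expressed at the same locus, differed by -0.1 (SE 0.19; -0.03 and -0.17 under the 2 exclusions).

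The other 31 imprinted genes measured had a median of -0.04, with 13 higher and 18 lower in iPSC and 4 (12.9%, against 7.76% of all genes) at an unadjusted p under 0.05 (Commd1, Plagl1, Slc38a4 and Zdbf2), none called. That number was 1 (Zdbf2) and 5 under the 2 exclusions. Zdbf2 was at 81.9 and 90.8 CPM in miR-290 KO ESC and 32.3 and 23.5 CPM in the colonies, and at 112 and 71.1 CPM against 75.1 and 77 CPM in the miR-302 KO. Its difference within the miR-290 KO was -1.66 (SE 0.268, limma adjusted p 0.422), and it was called only with estimated sample weights. H19, an imprinted noncoding RNA, was at 101 to 897 CPM in the ESC and 287 to 619 CPM in the colonies (0.2, SE 0.33). Snrpn had the largest difference (-2.29, SE 1.21; -3.44 and -1.13 under the 2 exclusions). It was -3.49 without library 1 and -1.08 without library 2 of colony 2 of the miR-290 KO, and -3.46 without library 2 and -1.11 without library 1 of colony 1 of the miR-302 KO. It shares its transcript with Snurf, which stood at 0.96 (SE 1.78; 2.4 and -0.49 under the 2 exclusions), so the division of reads between them is uncertain.

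Germline genes normally silenced by DNA methylation had mostly lower fitted values in iPSC, with a median of -0.43 over 19 genes, 16 of them lower, 0 called by limma and 2 (10.5%, against 7.76% of all genes) at an unadjusted p under 0.05 (Hormad1 and Tex19.1), which became 0 and 4 under the 2 exclusions. Hormad1, a meiotic chromosome axis gene, was at 5.49 and 11.5 CPM in miR-290 KO ESC against 4.06 and 1.77 CPM, and at 25.7 and 27.2 CPM in miR-302 KO ESC against 9.54 and 24.6 CPM (-1.41, SE 0.44; -0.82 and -1.99). Rhox5, X-linked, was at 260 CPM in replicate 1 of the miR-302 KO ESC and 204 CPM in the second library of colony 2 of the miR-302 KO iPSC, the libraries with the high X-linked level, and at most 19.4 CPM in the other 10. The list median ran from -0.74 to -0.12 between the 2 exclusions. Between samples of a group it had a pooled SD of 0.623 (log2), larger than the size of the -0.43.

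Genes of the 2-cell-like state, which a minority of ESC enters transiently, had a median of -0.68 over 8 genes, all with fitted values below 0 and none called. This median had a pooled SD of 0.746 (log2) between samples of a group. Zscan4d was at -0.03 (SE 1.32; 0.21 and -0.27 under the 2 exclusions), with -2.28 for miR-290 KO and 2.22 for miR-302 KO cells. Only Usp17la among the 8 genes had recovered CPM (1.96 to 5.73 in the ESC and 1.25 to 6.15 in the colonies), and most of the 8 are copies of multigene families whose reads are uncertain. Tcstv1 had the largest difference (-1.47, SE 0.62), with -0.09 for miR-290 KO and -2.85 for miR-302 KO cells. It was -0.28 and -2.66 under the 2 exclusions. That list's median was -0.69 and -0.42. The 8 genes of the X inactivation centre and its escapees had a median of -0.29 (-0.07 and -0.41), with Ftx the largest at -0.94 (SE 0.6) and at most 2.26 CPM in the 12 libraries.

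Lineage genes stood near the median of all genes. The medians were -0.09 over 10 primitive endoderm genes, -0.14 over 12 trophoblast genes and 0.01 over 8 early lineage genes, with 3 (30%), 1 (8.33%) and 0 members at an unadjusted p under 0.05, against 7.76% of all genes, and 0 called by limma. The 3 endoderm genes became 0 and 1 under the 2 exclusions. Gata2, a trophoblast and blood transcription factor, was at 33.7, 69.5, 19.8 and 17.4 CPM in the ESC and 36.2, 14.2, 3.72 and 17 CPM in the colonies (-1.5, SE 0.54; -0.82 without the libraries with Y-gene reads and -2.18 without those with few or none). Amn, an endodermal membrane protein gene, had 0.0522 to 2.12 CPM in the ESC and 1.75 to 3.46 CPM in the colonies (1.49, SE 0.65). Mixl1, of the primitive streak, had at most 3.09 CPM in the 12 libraries (-0.9, SE 0.49; -0.57 and -1.23).

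Reported targets of the shared seed included no called gene. The 20 such genes had a median of 0.15, with 12 higher and 8 lower in iPSC, 0 called by limma and 3 (15%, against 7.76% of all genes) at an unadjusted p under 0.05 (Cfl2, Lefty2 and Rhoc), 1 and 4 under the 2 exclusions. Cdkn1a, the p21 cell cycle brake, was at 341 and 273 CPM in miR-290 KO ESC and 276 and 434 CPM in the colonies, and at 128 and 142 CPM against 228 and 194 CPM in the miR-302 KO (0.39, SE 0.18; 0.23 and 0.55). Rhoc, a small GTPase, was at 53.6, 75, 31.6 and 30.4 CPM in the ESC and 77.6, 126, 57.6 and 46.4 CPM in the colonies (0.62, SE 0.22). Rbl2, a pocket protein of the retinoblastoma family, had the largest difference (-0.75, SE 0.5), with -1.58 for miR-302 KO cells and 0.09 for miR-290 KO cells (unadjusted p for the difference between genotypes 0.092). It was -0.28 and -1.21 under the 2 exclusions.

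The 17 p53 targets had a median of -0.08, with 0 called by limma and 3 (17.6%, against 7.76% of all genes) at an unadjusted p under 0.05 (Bax, Gtse1 and Mdm2), 1 and 5 under the 2 exclusions. Bax, which encodes a pore-forming promoter of cell death, was the 1 member of 17 whose colony averages did not overlap the ESC (354 of all genes, 2.77%). It was at 9.33 to 12.7 CPM in the ESC and 14, 40.4, 28 and 17.2 CPM in the colonies (0.95, SE 0.32). Single libraries did overlap: library 2 of colony 1 of the miR-290 KO had 10.6 CPM, inside the range of the ESC. Colony 1 of the miR-302 KO held 1 library with 13.8 and 1 with 42.1 CPM. Gtse1, a microtubule-binding gene of dividing cells, was at 299, 349, 483 and 179 CPM in the ESC and 295, 96.2, 106 and 192 CPM in the colonies (-1.5, SE 0.46). Within the miR-302 KO iPSC it had 203 and 338 CPM in the libraries with few or no Y-gene reads and 8.77 and 46.2 CPM in those with such reads, and its difference was -0.58 and -2.43 under the 2 exclusions.

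Glycolytic and interferon genes had medians next to 0. The 17 glycolysis genes had a median of 0.00 and an interval within a 2-fold change in 16, with 0 called and 0 at an unadjusted p under 0.05. Pkm, for pyruvate kinase, was at 1347 to 2131 CPM in the ESC and 1760 to 3589 CPM in the colonies (0.31, SE 0.2; -0.04 and 0.65 under the 2 exclusions), and Ldha, for lactate dehydrogenase, differed by 0.00 (SE 0.17; -0.07 and 0.08). Eno1 was listed at 0 reads in 7 of the 8 samples although every cell uses this enolase, so its value is uncertain. The 22 interferon and antigen presentation genes had a median of 0.01, and Psmb9, an immunoproteasome subunit, had the largest difference (-1.28, SE 0.62; -0.84 and -1.71). In the 11 lists whose median lay within 0.2 of 0, both exclusions gave medians from -0.35 (primitive endoderm) to 0.16 (early lineage genes).

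**Figure D5:**
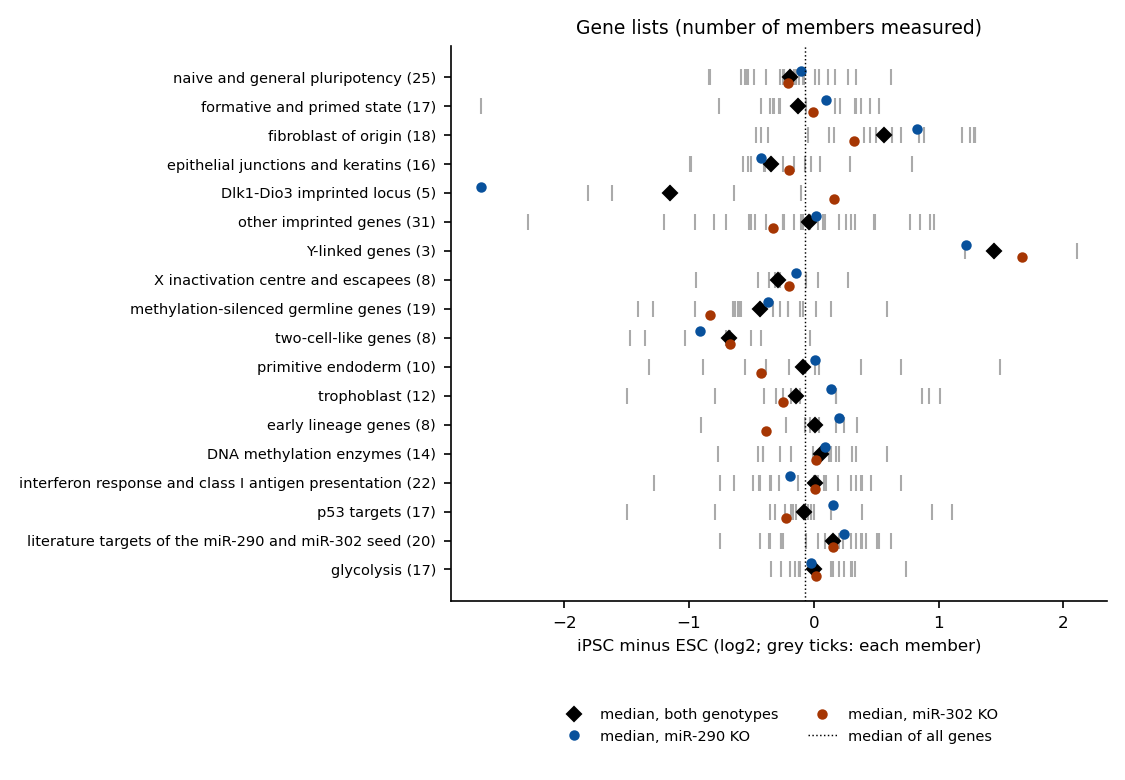
For each of 18 gene lists (number of measured members in brackets), grey ticks plot the iPSC minus ESC difference (log2) of each member, diamonds the list median, and blue and brown points the median within the miR-290 KO and the miR-302 KO; the dotted line is the median of all genes (-0.07). Most medians lie near the line, the fibroblast list stands at 0.56 and the Y-linked genes at 1.44, and the Dlk1-Dio3 median is low within the miR-290 KO alone. Only colony 2 of the miR-290 KO was low there, and the list median over both genotypes was -0.02 without that colony.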

How the data were processed

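Total RNA (200 ng) was made into QuantSeq 3′ libraries and sequenced as 50 bp single-end reads, per the labels' protocols. The submitters' processing notes name Trim Galore 0.66, STAR, Salmon 1.4.0, limma, DESeq2 1.34.0 and the mm10 build, without saying which made the matrix. The authors deposited 1 matrix of log2 values for 12778 genes. From the values themselves, these are log2 CPM with a prior of 0.91 to 3.52 reads, shifted by 1 constant per gene. Whole reads, within 0.02 of a read in at least 13 libraries, were recovered for 12235 genes (95.8%), in which 99.7% of values came out whole; the other 543 genes have log2 differences only. In the matrix, 6 columns that belong to no sample used here were not used, and 19 names turned into dates were not named. The authors' comparison tables were not used.

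Each colony was the mean of its 2 libraries on the log2 scale, and 4 colonies and 4 ESC libraries entered limma 3.58.1 (R 4.3.3) with a trend on the mean and genotype as covariate (5 residual degrees of freedom), or with 4 group means (4 residual degrees of freedom). Differences are iPSC minus ESC, and a gene was called at an adjusted p under 0.05 (Benjamini-Hochberg over all genes). The scale understates changes of weakly expressed genes. Without molecular identifiers PCR copies cannot be told from molecules, so the level of 3 reads covers counting error only. How reads with several matches were counted is not given in the sources used here. The genes named were the 12 with the smallest p in each direction, the member of each list with the largest difference, and genes called within a genotype; others were named after their values were seen. Members and lists were chosen with earlier results of these data known. The fit was tested on simulated data. Gene positions and microRNA sequences are from RefSeq, both GRCm38. Scaling, prior, filter, weights, block and left-out samples were varied (27 alternatives).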

Additional observations from a re-analysis of the deposited data

Results flagged for a closer look

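In 49 sets of 4 libraries of the named genes, 3 had 1 library so far from the other 3 that the gap took the whole range (ratio 1, past the limit of Dixon's test for 4 samples); chance alone gives about 1 in 20. In the miR-290 KO iPSC, Hdhd1a was at 0.569 CPM in colony 1 library 2 and at 0 in the other 3 libraries. In the miR-302 KO iPSC, Gm6710 was at 1.28 on the deposited log2 scale in colony 2 library 2 and at -1.17 in the other 3. In the same library Zic5 was at 0.0493 CPM, and at 0 in the other 3. All 3 lie at the bottom of the measured range. With the other 3 libraries tied at their lowest value, any higher value in the remaining library gives a ratio of 1. The rate of 1 in 20 therefore does not apply to them.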

How the results depend on the processing

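The count of genes called for origin was 0 in 24 of 27 alternatives and 1 (Ddx3y) with all 13 samples in 1 fit, with centring on the median difference and with estimated sample weights. Within the miR-290 KO, the count was 4 with estimated sample weights (Dpys, Erdr1, Myof and Zdbf2) and 0 with all 13 samples in 1 fit; leaving out 1 colony or library at a time gave 0 to 4, the 4 being Gm20765, Meg3, Mirg and Rian without colony 1. Within the miR-302 KO, leaving out 1 gave 0 to 6, the highest without colony 2, and for the difference between genotypes it gave 0 to 4 (3 without colony 1 of the miR-290 KO: Meg3, Mirg and Rian). With the replicate number as a replicate block, the counts were 0 for origin, 0 within the miR-290 KO (Myof lost), 0 within the miR-302 KO and 0 between genotypes. Same-numbered samples shared only a number (correlations of deviations from -0.27 to 0.11). In alternatives chosen after seeing the data, without the 2 miR-302 KO iPSC libraries with Y-gene reads the counts were 0, 1, 1 and 1 in the same order. Without the 2 with few or no such reads they were 0, 0, 15 and 0. Under these 2, the differences of the 24 genes kept their sign and 10 moved by over 1.5 times. The cause was not tested. With 2 samples per group, the spread limits what could be called.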
